A study of Homo sapiens with 15 samples.

Results

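The 3 libraries of experiment 2 of the 24-h protocol are described here against the 6 libraries of experiments 1 and 3, out of 9 libraries of that protocol and 15 in the series. Members were chosen by the replicate number 2 that ends their sample titles. That number was taken because its libraries stood apart in these same data, so the level of experiment 2 against the others is given as a description, with no test. The response to particles within an experiment is another contrast, and whether it differed in experiment 2 was tested. That test uses the same libraries, so it is not independent of the choice of experiment 2.

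The cells were BEAS-2B, an immortalized line of human bronchial epithelial cells grown on collagen in serum-free bronchial medium that supplies growth factors. PM2.5, fine particulate matter drawn from winter air in Beijing and sonicated off filters into water, was added once. In each of the 3 experiments, 1 culture was kept in vehicle (Control_24h), 1 was given 1 µg/cm2 (PM_24h_1dose) and 1 was given 30 µg/cm2 (PM_24h_30dose) of PM2.5 for 24 h. The 6 libraries of the 7-day protocol (Control_7d and PM_7d_1dose, fresh medium or 1 µg/cm2 each day) are quoted only as ranges. The series record calls the replicate number an experimental batch, and what set the batches apart in date, passage or medium is not given in the sources used here. By the sample names in the labels, the sample numbers of experiments 2 and 3 run on from each other and those of experiment 1 are lower.

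In airway epithelial cells, growth factors of the medium act through the EGF receptor and the kinase ERK, which switches on the ETV transcription factors, cyclin D1 and the dual-specificity phosphatases and Sprouty proteins that feed back on ERK itself. When amino acids run short, or under other stresses that phosphorylate the translation factor eIF2α, the transcription factor ATF4 is made and turns on genes of amino acid synthesis and uptake. YAP and TEAD, which respond to cell density and stretch, MYC, which drives ribosome production, and HSF1, which drives heat shock genes, are further regulators whose targets are well known.

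Libraries held 21460981 to 34724765 counted reads, and 3 counts, taken as the floor, came to 0.0864 to 0.140 CPM in them, which is a limit of counting alone. CPM are counts scaled to library size by TMM, edgeR's trimmed mean of log ratios. Experiment 2 gave 4.13% to 4.40% of its counts to mitochondrially encoded genes against 2.76% to 3.42% in experiments 1 and 3, and 17613 to 18658 genes were detected against 18224 to 19970. Detection means more than 3 counts and was not scaled for depth. In vehicle and at 1 µg/cm2, experiment 2 held 21865374 and 21540120 reads against 29131579 to 34724765 in the others. At 30 µg/cm2 it held 32649858 against 30460031 and 21460981. Within a treatment, the SD of the log2 ratio over the 10928 genes at 5 CPM or more was 0.518 to 0.758 for the pairs that held an experiment 2 library and 0.135 to 0.209 for experiments 1 and 3, so the latter are close to each other at all doses. *KRT5* and *TP63*, which mark basal epithelial cells, and *EPCAM* and *CDH1*, which mark epithelium, were present in every library of experiment 2 (164 to 728 CPM, 12.1 to 22.98, 28.2 to 31.9 and 33.4 to 71.6). Presence does not mean that the level of epithelial genes was the same as in experiments 1 and 3. In bulk samples, fewer cells of a type and less RNA per cell cannot be told apart. Fibroblast markers summed to 166 to 216 CPM against 91.4 to 159, without overlap, and a sum follows its most abundant markers. By gene, the median log2 difference of the 9 tested was 0.19, or 0.60 with the trend on gene length and GC described below removed. Immune markers summed to 10.9 to 23.3 CPM against 4.89 to 16.5, with *CD3E*, *CD3D* and *LYZ* among the markers at 0, and endothelial markers to 1.60 to 3.81 against 2.33 to 4.08. Markers of secretory and ciliated cells summed to 10.3 to 29.9 CPM against 5.31 to 14.3, with *SCGB1A1*, *SCGB3A1*, *SCGB3A2*, *MUC20*, *FOXI1* and *TFF3* at 0. The part of these shifts in the results was not tested.

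**Figure D1:**
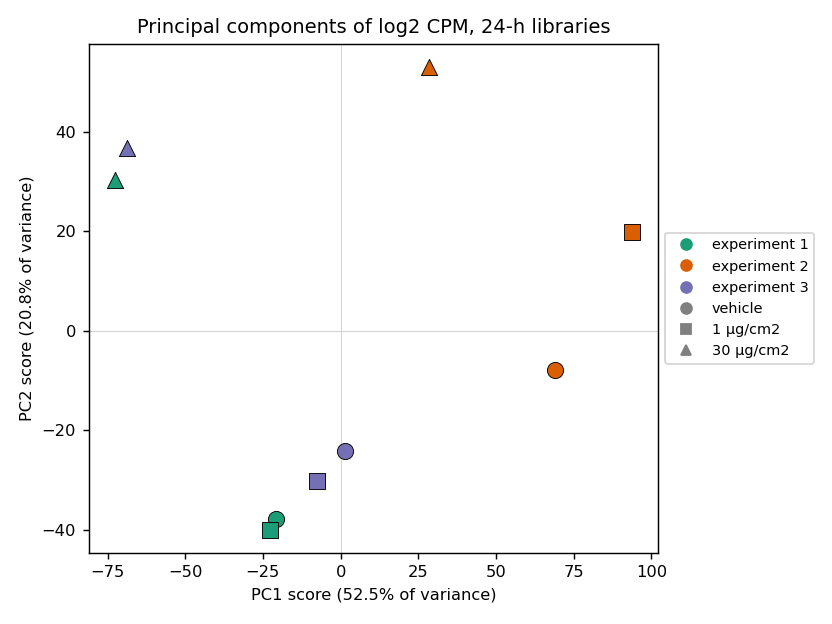
Principal component scores of the 9 libraries of the 24-h protocol, from log2 CPM of all tested genes, with PC1 (52.5% of the variance) on the horizontal and PC2 (20.8%) on the vertical axis. Colours give the experiment and shapes the treatment. The 3 experiment 2 libraries lie on the right, apart from the paired points of experiments 1 and 3.

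A gene was counted as set apart where, in each of the 3 treatments, the experiment 2 library lay outside both others on the same side. Its absolute log2 difference, edgeR's coefficient for experiment 2 with treatment as a covariate, also had to be at least 0.6. Of 16774 genes tested, 5039 (30.0%) were set apart, 2421 higher (14.4%) and 2618 lower (15.6%) in experiment 2. These are the contrasts that chose the experiment, so the share is a description. The filter on low counts asks for enough counts in any 3 libraries. A gene can thus pass through the 3 libraries of experiment 2 alone, and it then tends to count as higher. Such genes are part of the counts and of the shares set beside them, and their number was not taken. Past the same fold within a single treatment were 5392 genes (32.1%) in vehicle, 7817 (46.6%) at 1 µg/cm2 and 6833 (40.7%) at 30 µg/cm2. Just inside the threshold were *ELOVL7* and *PRKAB2*, at log2 differences of -0.6001 and -0.6003, and just outside it *PSMA4* at 0.5997 and *KHNYN* at -0.59996.

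Among genes at 5 CPM or more, *CHI3L1*, a secreted glycoprotein of inflamed tissue, stood farthest above. In experiment 2, *CHI3L1* stood at 7.72 CPM in vehicle, 13.5 at 1 and 142 at 30 µg/cm2, against 2.66 and 2.58, 2.45 and 2.41, and 9.43 and 9.19 in experiments 1 and 3 (pairs of values in the same order of dose). The fitted log2 difference of *CHI3L1* was 2.77. *ALDH3A1*, an aldehyde dehydrogenase induced through the aryl hydrocarbon receptor, differed by 2.65, *CHAC1*, which degrades glutathione, by 2.61, *NUPR1*, a stress-induced nuclear protein, by 2.400, *SLPI*, an inhibitor of leukocyte protease, by 2.297, and *TNNT2*, a troponin that overlaps *LAD1*, by 2.18. Among the genes farthest below were *FLG* (-3.79, with an antisense gene at its locus), which encodes the epidermal protein filaggrin, *BDP1* (-3.25), a subunit of a factor for RNA polymerase III, *NFAT5* (-2.71), the factor of osmotic stress, *LRP6* (-2.48), a WNT coreceptor, *CCND1* (-2.41) and *HMGA2* (-2.33), a chromatin protein with an antisense gene at its locus. *DUSP2* (-3.099), a phosphatase of MAP kinases, was at 0.0908 and 0.0952 CPM in experiment 2 at the lower doses, near the floor, so its value depends on the prior count.

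Longer genes were on average lower in experiment 2. The median log2 difference was 0.366 in the decile of genes with the shortest exons and -0.481 in the decile with the longest. Across genes, Spearman's rho of the difference was -0.352 with exon length and 0.275 with the GC content of transcripts, a description over genes that share the same libraries. *BDP1*, *NFAT5*, *FLG* and *LRP6* are among the long genes. With the smooth trend on length and GC removed, 3766 genes (22.5%) were set apart, and *BDP1* stood at -2.700, *NFAT5* at -2.04, *CHI3L1* at 2.43 and *CCND1* at -2.49. Throughout, a difference with this trend removed is the plain mean of the log2 differences in the 3 treatments, and not edgeR's coefficient. A shift between the values with and without the trend thus also holds this change of statistic. The part of RNA quality in this trend was not tested.

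**Figure D2:**
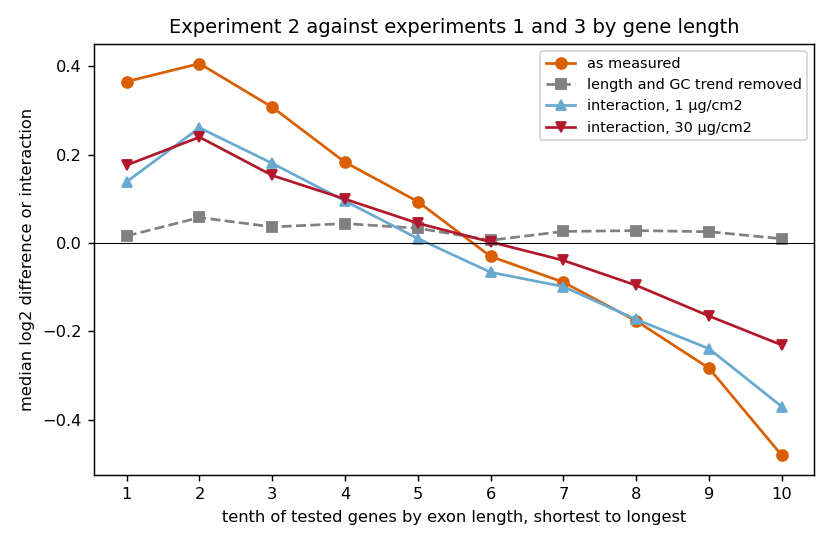
Median log2 difference between experiment 2 and experiments 1 and 3 (circles, edgeR's coefficient), the median of the plain mean difference with the length and GC trend removed (squares), and median interactions at 1 and 30 µg/cm2 (triangles), in deciles of the tested genes by exon length. The level runs from 0.366 in the shortest decile to -0.481 in the longest, and the interactions slope the same way, from 0.139 to -0.371 and from 0.176 to -0.231.

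The question of the 24-h protocol is how the cells respond to PM2.5. With all 3 experiments in edgeR's quasi-likelihood fit, and an absolute log2 change of at least 0.6 at an adjusted p under 0.05, 3 genes (0.0179%: *AHRR*, *CYP1A1* and *CYP1B1*) were called at 1 µg/cm2 and 545 (3.25%) at 30 µg/cm2. With the experiment as a replicate block, 25 (0.149%) and 2390 (14.2%) were called. Experiments 1 and 3 alone gave 324 (1.91%) and 3246 (19.2%), or 693 (4.09%) and 3736 (22.1%) with the block. Across 10928 genes, the log2 response to 1 µg/cm2 in experiment 2 had a Pearson r of -0.027 with that of experiment 1 and -0.224 with that of experiment 3, while experiments 1 and 3 gave 0.837. These were 0.605, 0.534 and 0.944 for 30 µg/cm2. With the length and GC trend removed, r in the same order was 0.058, -0.026 and 0.857 at 1 µg/cm2. At 30 µg/cm2 it was then 0.637, 0.598 and 0.952. The negative r with experiment 3 at 1 µg/cm2 thus came close to 0. Genes are not independent replicates, and the vehicle library of an experiment enters each of its responses.

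The interaction, the log2 response in experiment 2 minus that in experiments 1 and 3, was tested for every gene. At 1 µg/cm2, 1003 genes (5.98%) were called, 691 with a higher response in experiment 2 (4.12%) and 312 with a lower one (1.86%). For 30 µg/cm2, 1795 genes (10.7%) were called, 1144 higher (6.82%) and 651 lower (3.88%). With the replicate block these were 2181 (13.0%) and 2734 (16.3%). The test has 3 residual degrees of freedom, all of them from experiments 1 and 3, since experiment 2 has 1 library per treatment and its spread is assumed to equal theirs. The vehicle library of experiment 2 enters every interaction and also the level difference. A gene low in that library tends to a higher interaction, so these are not independent of each other. The p-values measure the spread between these libraries only.

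Single libraries move these counts. Without the 30 µg/cm2 library of experiment 1 or 3, the interaction at 1 µg/cm2 was called for 312 and 178 genes and that at 30 µg/cm2 for 627 and 716. At 1 µg/cm2 there were 529 without the vehicle library of experiment 3, 2161 without that of experiment 1, and 1777 without the 1 µg/cm2 library of experiment 3. Responses to 30 µg/cm2 over all experiments were called for 88 genes without the 30 µg/cm2 library of experiment 3, 95 without that of experiment 1 and 1184 without that of experiment 2. They were called for 161, 343 and 167 without the vehicle library of experiment 1, 2 or 3, and for 353 and 331 without the 1 µg/cm2 library of experiment 1 or 3. With the length and GC trend removed, 500 (2.98%) and 1647 (9.82%) interactions were called.

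**Figure D3:**
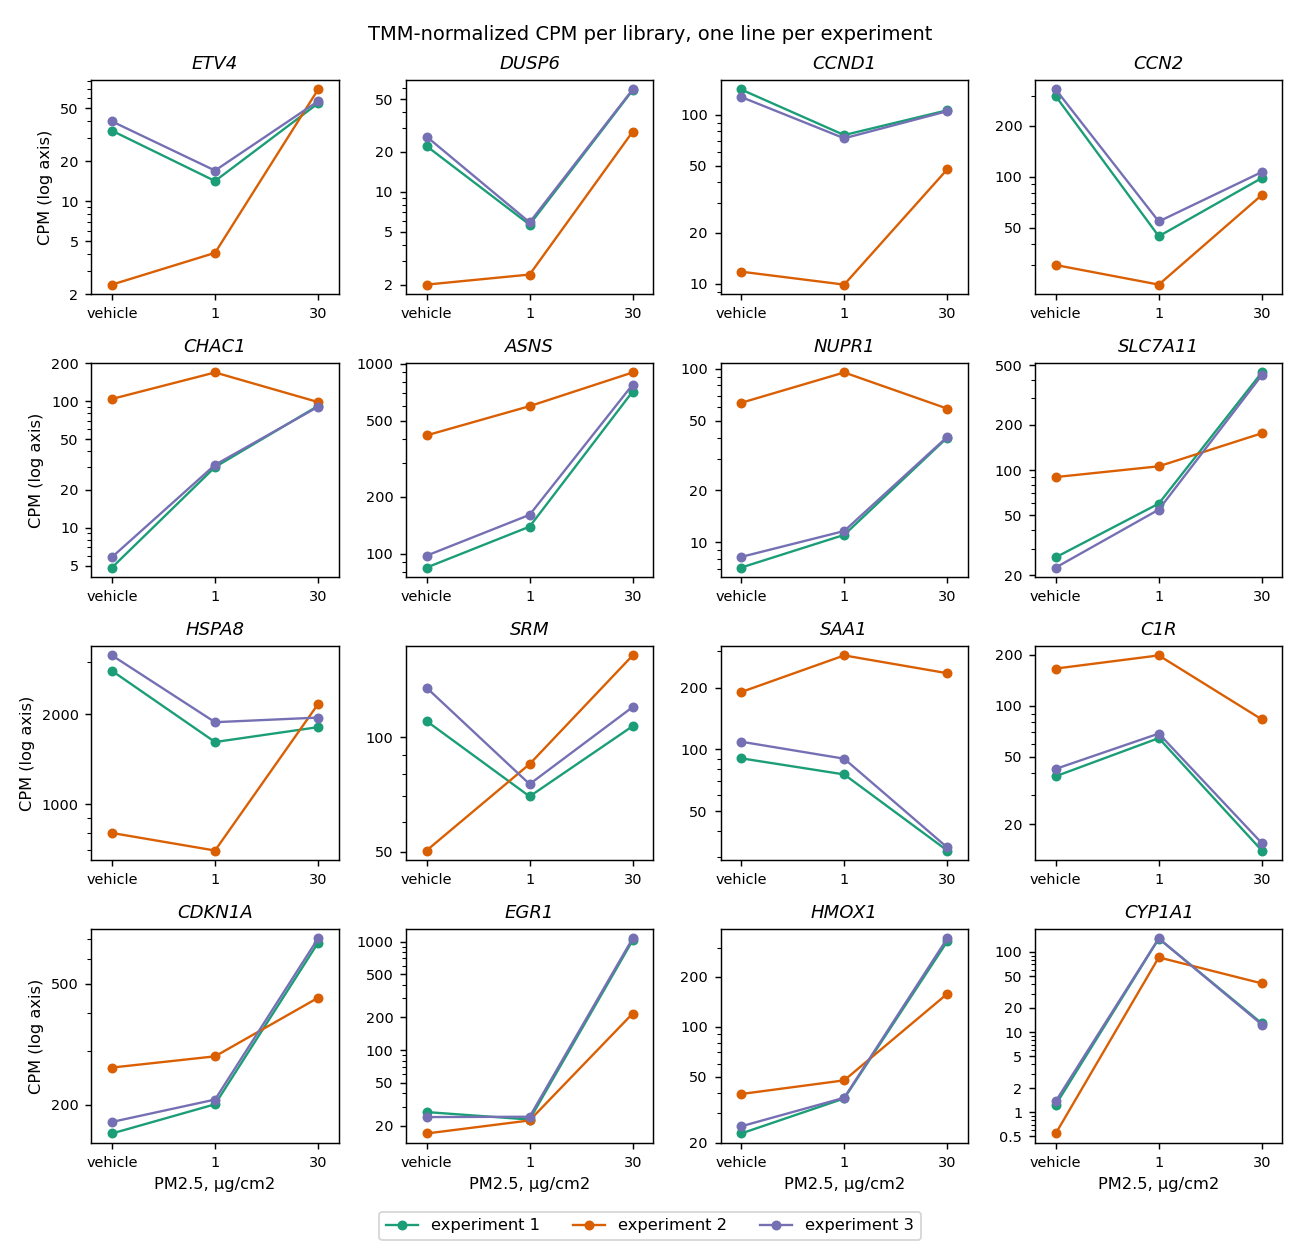
TMM-normalized CPM (log axis) of 16 genes in vehicle, 1 and 30 µg/cm2 of PM2.5, with 1 line per experiment and 1 point per library. The lines of experiments 1 and 3 run nearly together, and that of experiment 2 starts elsewhere and changes its slope, as in *ETV4*, *CHAC1* and *HSPA8*.

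Genes switched on by ERK stood low in experiment 2, most of all in vehicle, and part of them had a larger response to 30 µg/cm2. Of 21 tested, 14 were set apart lower and 0 higher, beside 15.6% and 14.4% over all genes, with a median log2 difference of -1.21 against 0.0037 over all genes. The median was -1.63 in vehicle, -0.97 at 1 and -0.86 at 30 µg/cm2. In experiment 2, *ETV4*, an ETS transcription factor (ENSG00000175832.12, chr17:43527844-43579620, minus strand, overlapping *DHX8* on the other strand) stood at 2.36 CPM in vehicle, 4.09 at 1 and 69.1 at 30 µg/cm2, against 33.9 and 39.8, 14.2 and 17.00, and 54.4 and 56.5 in experiments 1 and 3. Vehicle and 1 µg/cm2 of experiment 2 lay below both others, and 30 µg/cm2 above both. The interaction was a log2 of 2.03 ± 0.30 (adjusted p = 0.00586) at 1 µg/cm2 and 4.28 ± 0.24 (adjusted p = 7.18e-06) at 30 µg/cm2, by edgeR's quasi-likelihood F test. Here and below, the value after ± is an SE, taken as the absolute fitted log2 divided by the square root of F. It holds no spread of experiment 2, which has 1 library per treatment.

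*ETV5*, its paralog that overlaps *DGKG*, was at 3.36 CPM in vehicle against 39.1 and 37.6, and the interaction at 30 µg/cm2 was 3.18 ± 0.18 (adjusted p = 7.18e-06). In experiment 2, *DUSP6*, the phosphatase that inactivates ERK, stood at 1.998 CPM in vehicle, 2.38 at 1 and 28.3 at 30 µg/cm2, against 22.1 and 26.1, 5.65 and 5.88, and 58.3 and 58.97 in experiments 1 and 3. All 3 experiment 2 libraries were the lowest of their treatment. Within experiments 1 and 3 its log2 response to 1 µg/cm2 was -1.96 and -2.14, and in experiment 2 it was 0.25, with an interaction of 2.31 ± 0.30 (adjusted p = 0.00454). The interaction at 30 µg/cm2 was 2.54 ± 0.23 (adjusted p = 0.000118).

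*CCND1*, cyclin D1 of the G1 phase (ENSG00000110092.3, chr11:69641087-69654474, plus strand, overlapping *LTO1* on the other strand), held 11.8 CPM in the vehicle library of experiment 2 against 141 and 128, 9.897 at 1 µg/cm2 against 75.9 and 72.7, and 47.6 at 30 µg/cm2 against 106 and 105. Its interaction at 30 µg/cm2 was 2.36 ± 0.16 (adjusted p = 2.59e-05). The nuclear protein gene *PHLDA1* gave 2.15 ± 0.16 (adjusted p = 3.23e-05), *DUSP4* 1.72 ± 0.15 (adjusted p = 8.27e-05), the Sprouty gene *SPRY4* 1.87 ± 0.24 (adjusted p = 0.00102) and the AP-1 subunit gene *FOSL1* 1.33 ± 0.16 (adjusted p = 0.000822). Of 21 interactions at 30 µg/cm2, 9 were called higher and 1 lower, beside 6.82% and 3.88% over all genes. The 1 lower became 4 with the length and GC trend removed, 3 with upper-quartile scaling, and 2 with the replicate block, with no filter on low counts, or without the vehicle or the 1 µg/cm2 library of experiment 1 or 3. For 1 µg/cm2, 8 were called, each of them higher, beside 4.12%, and 5 without the 30 µg/cm2 library of experiment 3. With no filter on low counts, 1 was called lower at that dose. Ligands of the EGF receptor did not move as one. *EREG* was set apart lower (-1.37) as was *TGFA* (-1.31), while *AREG* was at 56.7 CPM in vehicle against 43.2 and 51.6, and its interaction at 30 µg/cm2 was -1.15 ± 0.20 (adjusted p = 0.00531). The cytokine gene *LIF*, overlapping an antisense gene, was lower in level (-1.16). In the 7-day libraries *DUSP6* spanned 5.004 to 9.95 CPM, *CCND1* 14.5 to 21.2 and *ETV4* 8.41 to 16.1.

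Immediate early genes, which are transcribed within minutes of a stimulus, were set apart lower in 10 of 22 and higher in 0, beside 15.6% and 14.4% over all genes, with a median of -0.60. In experiment 2, *EGR1*, a zinc finger transcription factor, stood at 16.98 CPM in vehicle, 22.4 at 1 and 217 at 30 µg/cm2, against 26.8 and 24.1, 22.8 and 24.2, and 1029 and 1072 in experiments 1 and 3. The rise at 30 µg/cm2 was a log2 of 3.68 in experiment 2 and 5.26 and 5.48 in the others, an interaction of -1.69 ± 0.17 (adjusted p = 0.000263). *FOS*, an AP-1 subunit, gave -1.06 ± 0.25 (adjusted p = 0.0223) and *ATF3*, a stress-induced relative of the ATF family, -2.33 ± 0.20 (adjusted p = 9.32e-05). *JUN*, another AP-1 subunit, went the other way at 0.73 ± 0.15 (adjusted p = 0.0122), with 17.03 CPM in vehicle against 59.2 and 58.7. For the list, 5 of 22 interactions at 30 µg/cm2 were called higher and 6 lower, beside 6.82% and 3.88% over all genes. The 5 became 2 without the 30 µg/cm2 library of experiment 1 or of experiment 3, and 3 with all 15 libraries. With the length and GC trend removed, the 5 became 2 and the 6 became 10. At 1 µg/cm2, 5 were called higher, beside 4.12%, and 3 without either of those libraries or with the trend removed. *FOS* and *JUN* no longer passed at 30 µg/cm2 without the 30 µg/cm2 library of experiment 1 or 3 (highest adjusted p = 0.0851 and 0.0665).

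Targets of YAP and TEAD were lower in experiment 2 at every dose, with medians of -0.94, -0.89 and -0.87 in vehicle, 1 and 30 µg/cm2, and 11 of 19 set apart lower and 0 higher, beside 15.6% and 14.4% over all genes. With the length and GC trend removed, 10 were lower and 1 higher, beside 11.7% and 10.7%. The median level difference was then -0.65 in place of -0.89. The promoter of *CCN2*, which encodes the matrix protein connective tissue growth factor, is shown because it holds the TEAD motif GGAATG at 3 places, 169, 104 and 95 bases before the start that RefSeq gives. The 250 bases before that start are printed (RefSeq, build GRCh38.p14, chr6:131951373-131951622, minus strand), with the motif in capitals.

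CCN2: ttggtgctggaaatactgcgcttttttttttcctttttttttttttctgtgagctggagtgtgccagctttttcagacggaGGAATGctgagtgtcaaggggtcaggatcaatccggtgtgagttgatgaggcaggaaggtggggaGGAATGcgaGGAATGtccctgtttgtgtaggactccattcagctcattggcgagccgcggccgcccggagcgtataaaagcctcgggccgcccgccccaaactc

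Searched on both strands from 250 bases before to 50 after the start, this motif is held by 6 of the 15 promoters of the list that matched RefSeq (40.0%) and by 14.0% of 27305 promoters of that length. In experiment 2, *CCN2* (ENSG00000118523.5, chr6:131948176-131951373, minus strand) stood at 30.1 CPM in vehicle, 23.1 at 1 and 77.98 at 30 µg/cm2, against 299 and 327, 44.5 and 54.4, and 98.2 and 107 in experiments 1 and 3. All 3 experiment 2 libraries were the lowest of their treatment, by a log2 of -3.37 in vehicle and -0.39 at 30 µg/cm2. In experiments 1 and 3 the log2 response to 1 µg/cm2 was -2.75 and -2.59, and in experiment 2 it was -0.38. The interaction was 2.28 ± 0.20 (adjusted p = 0.00126) at 1 and 2.98 ± 0.19 (adjusted p = 1.96e-05) at 30 µg/cm2.

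The response of other members differed less or in part. *CCN1*, the related matrix gene, was at 109, 97.5 and 183 CPM against 276 and 301, 171 and 192, and 543 and 582, with an interaction at 30 µg/cm2 of -0.22 ± 0.17 (adjusted p = 0.424) that did not pass. *ANKRD1*, a nuclear ankyrin repeat protein, was called at 1 µg/cm2 (1.395 ± 0.30, adjusted p = 0.026) and *TGFB2*, a TGF-beta ligand, at 30 µg/cm2 (0.84 ± 0.25, adjusted p = 0.0494). *AXL*, a receptor kinase with a gene on the other strand, was not set apart (level difference -0.31). Of 19 interactions at 30 µg/cm2, 4 were called higher and 2 lower, beside 6.82% and 3.88% over all genes, and the 2 became 0 without the 30 µg/cm2 library of experiment 1 or of experiment 3. With 1 µg/cm2, 3 were called, each of them higher, beside 4.12%, and 1 without the 30 µg/cm2 library of experiment 3. At that dose 2 were called lower with the replicate block or with no filter on low counts, and 1 with DESeq2 or with all 15 libraries. The median interaction of the list was -0.071 at 1 and -0.127 at 30 µg/cm2, against -0.059 and -0.0077 over all genes, so *CCN2* does not stand for the list. *ANKRD1* no longer passed at 1 µg/cm2 without the vehicle library of experiment 3, or the 30 µg/cm2 library of experiment 3 (highest adjusted p = 0.0591). *TGFB2* no longer passed at 30 µg/cm2 without the vehicle library of experiment 1, or the 30 µg/cm2 library of experiment 1 or 3 (highest adjusted p = 0.141).

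Genes of ribosome production and targets of MYC, taken as 1 list, stood low in vehicle, with a median of -0.94 there, -0.092 at 1 and -0.00085 at 30 µg/cm2. The median response at 30 µg/cm2 was 0.85 in experiment 2 against 0.096 and 0.12 in experiments 1 and 3, and at 1 µg/cm2 0.090 in experiment 2 against -0.46 and -0.44 in experiments 1 and 3. Of 27 tested, the interaction at 30 µg/cm2 was called in 22, each of them higher, beside 6.82% higher over all genes, and at 1 µg/cm2 in 12, also higher, beside 4.12%. The 22 became 8 without the 30 µg/cm2 library of experiment 1 and 10 without that of experiment 3, and the 12 became 7 without the latter. *SRM*, which makes spermidine, is shown with the E-box CACGTG, to which MYC binds, 199 bases before its start (RefSeq, GRCh38.p14, chr1:11060019-11060268, minus strand, the motif in capitals).

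SRM: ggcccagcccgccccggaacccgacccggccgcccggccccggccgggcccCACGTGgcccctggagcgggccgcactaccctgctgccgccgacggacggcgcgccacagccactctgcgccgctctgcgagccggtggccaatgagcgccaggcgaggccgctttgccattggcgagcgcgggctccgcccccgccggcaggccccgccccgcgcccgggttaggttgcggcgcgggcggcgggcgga

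The E-box is in 8 of 21 matched promoters of the list (38.1%) and 7.43% of all promoters. In experiment 2, *SRM* (ENSG00000116649.9, chr1:11054584-11060024, minus strand) stood at 50.4 CPM in vehicle, 85.1 at 1 and 164 at 30 µg/cm2, against 110.5 and 135, 69.96 and 75.4, and 107 and 120.2 in experiments 1 and 3. It was the lowest of its treatment in vehicle and the highest at both doses. The interaction was 1.51 ± 0.19 (adjusted p = 0.00454) at 1 and 1.82 ± 0.19 (adjusted p = 0.000351) at 30 µg/cm2. *RRS1*, a ribosome assembly factor that overlaps *ADHFE1*, gave 1.52 ± 0.16 (adjusted p = 0.00032) at 30 µg/cm2, *NOP16*, a nucleolar protein with genes on the other strand, 1.32 ± 0.17 (adjusted p = 0.00107), *FBL*, the methylase of ribosomal RNA, 1.09 ± 0.18 (adjusted p = 0.00441), *NPM1*, nucleophosmin, 0.89 ± 0.21 (adjusted p = 0.0205) and *NCL*, nucleolin, 0.81 ± 0.19 (adjusted p = 0.0211). *TFRC*, the transferrin receptor, and *UTP20*, of the small subunit processome, were set apart lower at every dose (-1.28 and -1.46). *MYC* itself was at 62.4 CPM in vehicle against 137 and 144 and gave an interaction of 0.96 ± 0.15 (adjusted p = 0.00872) at 1 and 0.72 ± 0.15 (adjusted p = 0.0129) at 30 µg/cm2. *MYC*, *NCL* and *NPM1* no longer passed at 30 µg/cm2 without the 30 µg/cm2 library of experiment 1 or 3 (highest adjusted p = 0.0775, 0.111 and 0.104).

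Heat shock genes followed a like course, with medians of -0.87, -0.68 and -0.079 in vehicle, 1 and 30 µg/cm2. Their median response at 30 µg/cm2 was 0.63 in experiment 2 against -0.24 and -0.29 in experiments 1 and 3. Of 19 tested, 11 interactions at 30 µg/cm2 were called, each of them higher, beside 6.82% over all genes, which became 5 and 6 higher without the 30 µg/cm2 library of experiment 1 or 3. With the replicate block, with no filter on low counts or with the length and GC trend removed, 1 was called lower. *HSPA8*, the constitutive HSP70 chaperone, is shown because its promoter holds the heat shock element bound by HSF1 at 230 and 55 bases before the start (RefSeq, GRCh38.p14, chr11:123062137-123062386, minus strand, the element in capitals, the second one on the other strand).

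HSPA8: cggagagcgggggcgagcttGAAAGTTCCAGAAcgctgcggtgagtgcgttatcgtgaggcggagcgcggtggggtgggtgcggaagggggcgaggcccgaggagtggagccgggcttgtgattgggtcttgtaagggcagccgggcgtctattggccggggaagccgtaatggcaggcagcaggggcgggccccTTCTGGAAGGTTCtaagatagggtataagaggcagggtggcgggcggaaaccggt

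The element is in 4 of 20 matched promoters of the list (20.0%) and 0.487% of all. In experiment 2, *HSPA8* (ENSG00000109971.13, chr11:123057489-123063230, minus strand) stood at 801 CPM in vehicle, 699 at 1 and 2166 at 30 µg/cm2, against 2799 and 3152, 1616 and 1883, and 1813 and 1951 in experiments 1 and 3. It was far below in vehicle and at 1 µg/cm2, and above both others at 30 µg/cm2, with an interaction of 2.097 ± 0.20 (adjusted p = 0.000208). *HSP90AA1*, the inducible HSP90, which has a gene on the other strand, gave 1.27 ± 0.20 (adjusted p = 0.00343), *HSPE1*, the mitochondrial HSP10 that shares its locus with *HSPD1*, 1.68 ± 0.21 (adjusted p = 0.000829) and the cochaperone *DNAJA1* 1.18 ± 0.18 (adjusted p = 0.00233). *HSPB1*, the small heat shock protein HSP27, was set apart higher (0.87), and 0.26 with the length and GC trend removed. *HSPA6*, the strictly inducible HSP70, reached 4.35 CPM at 30 µg/cm2 in experiment 2 and 15.9 and 16.7 in the others, from vehicle levels close to the floor, so no fold is given.

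Genes of the ATF4 amino acid response were high in experiment 2 in vehicle and at 1 µg/cm2, and close to the other experiments at 30 µg/cm2. The median difference was 0.83 in vehicle, 0.94 at 1 and 0.056 at 30 µg/cm2, and 12 of 33 were set apart higher and 0 lower, beside 14.4% and 15.6% over all genes. With the length and GC trend removed, 9 were higher and 0 lower, beside 10.7% and 11.7%. The median level difference was then 0.41 in place of 0.67. The median response at 30 µg/cm2 was 0.59 in experiment 2 against 1.44 and 1.37 in experiments 1 and 3. The interaction there was called in 19 of 33, each of them lower, beside 3.88% lower over all genes. *ASNS*, asparagine synthetase, and *CHAC1* are shown because they hold TGATGNAA, the core of the composite element that ATF4 binds, 68 and 209 bases before the start (RefSeq, GRCh38.p14, chr7:97872409-97872658, minus strand and chr15:40953221-40953470, plus strand, the motif in capitals, that of *CHAC1* on the other strand). This motif was picked after the values were seen.

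ASNS: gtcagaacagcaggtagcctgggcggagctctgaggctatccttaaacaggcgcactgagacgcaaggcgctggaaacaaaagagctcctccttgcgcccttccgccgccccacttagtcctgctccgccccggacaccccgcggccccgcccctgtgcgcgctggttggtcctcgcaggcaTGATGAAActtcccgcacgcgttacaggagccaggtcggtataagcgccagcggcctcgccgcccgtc
CHAC1: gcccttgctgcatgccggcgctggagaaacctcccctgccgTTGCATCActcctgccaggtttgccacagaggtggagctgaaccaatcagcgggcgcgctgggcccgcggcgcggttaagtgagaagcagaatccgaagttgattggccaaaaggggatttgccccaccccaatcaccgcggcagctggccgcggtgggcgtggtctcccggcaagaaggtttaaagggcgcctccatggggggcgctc

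The motif is in 7 of 28 matched promoters of the list (25.0%) and 3.67% of all. A match is a description of the letters and not of binding, and the counted gene models of *ASNS*, *CHAC1* and *HSPA8* begin upstream of the RefSeq start. In experiment 2, *ASNS* (ENSG00000070669.16, chr7:97852118-97872542, minus strand) stood at 419.8 CPM in vehicle, 598 at 1 and 899.9 at 30 µg/cm2, against 84.5 and 97.7, 139 and 160.2, and 714 and 777 in experiments 1 and 3. The vehicle library of experiment 2 thus lay between the 1 and 30 µg/cm2 libraries of the others. The log2 rise at 30 µg/cm2 was 1.100 in experiment 2 and 3.08 and 2.99 in the others, an interaction of -1.93 ± 0.19 (adjusted p = 0.000216).

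In experiment 2, *CHAC1* (ENSG00000128965.11, chr15:40952962-40956519, plus strand) stood at 104 CPM in vehicle, 169 at 1 and 98.3 at 30 µg/cm2, against 4.82 and 5.83, 30.1 and 31.3, and 91.8 and 90.3 in experiments 1 and 3. Vehicle in experiment 2 was above the 30 µg/cm2 libraries of the others, and the log2 response at 30 µg/cm2 was -0.082 against 4.25 and 3.95, with an interaction of -4.18 ± 0.17 (adjusted p = 1.29e-06). In experiment 2, *NUPR1* (ENSG00000176046.8, chr16:28532708-28539174, minus strand) stood at 63.6 CPM in vehicle, 95.1 at 1 and 58.9 at 30 µg/cm2, against 7.16 and 8.25, 11.04 and 11.6, and 40.1 and 40.5 in experiments 1 and 3, with an interaction of -2.500 ± 0.16 (adjusted p = 1.96e-05). All 3 experiment 2 libraries were the highest of their treatment. *SLC7A11*, the cystine transporter with an antisense gene at its locus, crossed over, from 89.9 CPM in vehicle against 26.3 and 22.4 to 176 at 30 µg/cm2 against 447 and 429, with -3.198 ± 0.17 (adjusted p = 7.18e-06). *SESN2*, a sensor of leucine, gave -1.98 ± 0.15 (adjusted p = 4.21e-05), *DDIT3*, the factor CHOP, whose locus is shared with *MARS1*, -2.21 ± 0.18 (adjusted p = 7.87e-05), *TRIB3*, a pseudokinase that binds AKT, -1.13 ± 0.16 (adjusted p = 0.00202) and *PCK2*, of mitochondrial gluconeogenesis, -1.13 ± 0.15 (adjusted p = 0.00112). The serine synthesis genes *PHGDH* (-0.92 ± 0.17, adjusted p = 0.00651) and *PSAT1* (-1.09 ± 0.18, adjusted p = 0.00377) did likewise. *ATF4* itself was set apart higher at 633, 798 and 942 CPM against 321 and 380.1, 358 and 408, and 704 and 739.8, and its interaction did not pass (-0.47 ± 0.19, adjusted p = 0.133). *INHBE*, a secreted inhibin subunit, was at 6.72 CPM in vehicle against 0.318 and 0.302, and its interaction at 30 µg/cm2 was -3.81 ± 0.49 (adjusted p = 0.00107). In the 7-day libraries *ASNS* spanned 591 to 829 CPM, *CHAC1* 28.5 to 71.02 and *NUPR1* 99.3 to 144. *PHGDH* no longer passed at 30 µg/cm2 without the 30 µg/cm2 library of experiment 3 (highest adjusted p = 0.0514).

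**Figure D4:**
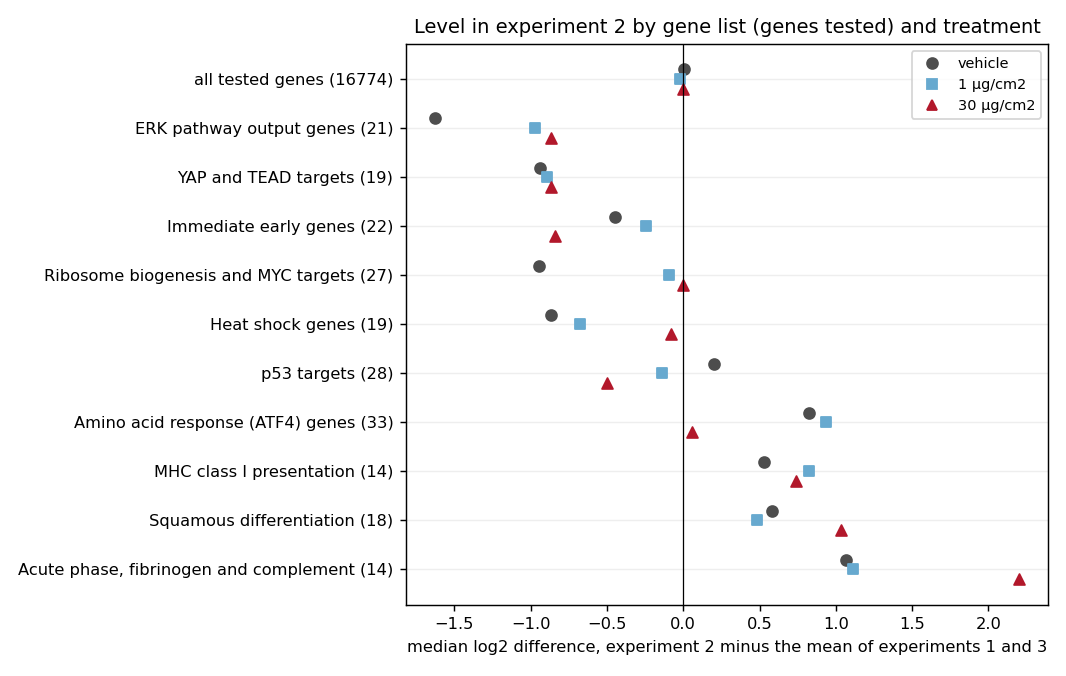
Median log2 difference between experiment 2 and the mean of experiments 1 and 3 for 10 gene lists and all tested genes, in vehicle (circles), 1 (squares) and 30 µg/cm2 (triangles), with the genes tested in parentheses. ERK output genes lie at -1.63 in vehicle and acute phase genes at 2.202 at 30 µg/cm2. The ATF4 list, the list of ribosome genes and MYC targets, and the heat shock list lie away from 0 in vehicle and near it at 30 µg/cm2.

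Among p53 targets, which respond to DNA damage, 15 of 28 had a smaller response to 30 µg/cm2 in experiment 2. The median response was 0.13 in experiment 2 against 0.79 and 0.77 in experiments 1 and 3, with the interaction called lower in these 15, beside 3.88% over all genes. Without the 30 µg/cm2 library of experiment 1 or of experiment 3, 8 were called in each case. In experiment 2, *CDKN1A*, the cyclin-dependent kinase inhibitor p21, stood at 265 CPM in vehicle, 289 at 1 and 449 at 30 µg/cm2, against 161 and 176, 201 and 208, and 681 and 703 in experiments 1 and 3. Vehicle was the highest and 30 µg/cm2 the lowest of its treatment, with an interaction of -1.28 ± 0.15 (adjusted p = 0.00081). *GDF15*, a stress cytokine, gave -2.17 ± 0.19 (adjusted p = 8.27e-05), *TP53INP1*, a partner of p53 in cell death, -1.29 ± 0.16 (adjusted p = 0.000794), the receptor gene *EDA2R* -1.36 ± 0.36 (adjusted p = 0.0354) and *MDM2*, the ligase that degrades p53, whose locus overlaps another gene, -0.74 ± 0.16 (adjusted p = 0.0164). *BAX*, a cell death effector, was set apart higher (0.71) and its interaction was 0.28 ± 0.17 (adjusted p = 0.315), which did not pass. Several of these genes, *GDF15* and *SESN2* among them, are known to answer to ATF4 as well. *EDA2R* no longer passed at 30 µg/cm2 without the vehicle library of experiment 3, or the 30 µg/cm2 library of experiment 1 or 3 (highest adjusted p = 0.116). *MDM2* no longer passed at 30 µg/cm2 without the 30 µg/cm2 library of experiment 1 or 3 (highest adjusted p = 0.103).

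**Figure D5:**
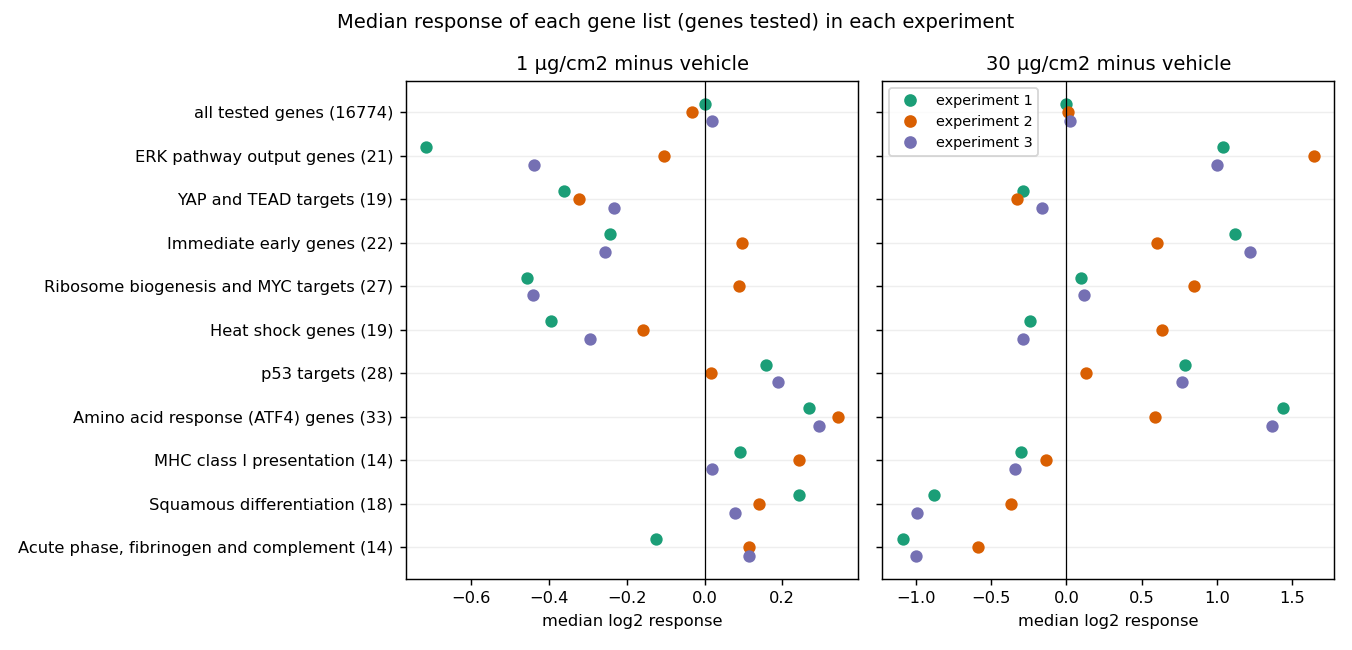
Median log2 response to 1 (left) and 30 µg/cm2 (right) against vehicle for the same lists, with 1 point for each experiment. At 30 µg/cm2 experiment 2 stands below the others for the ATF4 list (0.59 against 1.44 and 1.37) and p53 targets. It stands above them for heat shock genes and the list of ribosome genes and MYC targets.

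Acute phase, fibrinogen and complement genes were the list with the highest median in experiment 2 among the 10 drawn, at 1.24, with 10 of 14 set apart higher and 0 lower, beside 14.4% and 15.6% over all genes. The median was 1.06 in vehicle, 1.11 at 1 and 2.202 at 30 µg/cm2. In experiment 2, *SAA1*, serum amyloid A (ENSG00000173432.10, chr11:18266174-18269977, plus strand) stood at 190.3 CPM in vehicle, 287 at 1 and 235 at 30 µg/cm2, against 90.6 and 109, 75.6 and 90.2, and 32.2 and 33.3 in experiments 1 and 3. All experiment 2 libraries were the highest of their treatment. In experiments 1 and 3 its log2 response to 30 µg/cm2 was -1.49 and -1.71, and in experiment 2 0.30, an interaction of 1.91 ± 0.20 (adjusted p = 0.000295). *SERPINA1*, the protease inhibitor α1-antitrypsin, gave 2.03 ± 0.32 (adjusted p = 0.00357).

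The complement genes stood apart in level. In experiment 2, *C1R*, a protease that starts the classical pathway and that overlaps *C1RL*, stood at 166 CPM in vehicle, 198 at 1 and 83.2 at 30 µg/cm2, against 38.5 and 42.5, 64.6 and 68.7, and 14.04 and 15.5 in experiments 1 and 3, and its interaction at 30 µg/cm2 was 0.46 ± 0.16 (adjusted p = 0.0886). *C1S*, its partner, overlapping an unnamed gene, differed by 1.502 and *C3*, the central component, by 0.77. The fibrinogen genes *FGB* and *FGG* stood at 0.262 and 0.524 CPM at 30 µg/cm2 in experiment 2 and at or under the floor in the others, so their fitted interactions depend on the prior count and are no bound. Of 14 interactions at 30 µg/cm2, 4 were called higher and 1 lower, beside 6.82% and 3.88% over all genes, and the 4 became 2 without the 30 µg/cm2 library of experiment 1 or in edgeR's current mode and 7 with the replicate block.

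In the list of MHC class I presentation, by which cells show peptides to T cells, 8 of 14 were set apart higher and 1 lower, beside 14.4% and 15.6% over all genes, with a median of 0.73, or 0.45 with the length and GC trend removed. *B2M*, the common light chain, was at 391, 419.8 and 307 CPM against 215 and 251, 202 and 249, and 136 and 148. *HLA-B*, a heavy chain that shares reads with its paralogs and overlaps *HLA-C*, differed by 1.31, and *PSMB9*, a subunit of the immunoproteasome, by 1.32. The exception was *TAPBP*, tapasin, at -0.75. The 8 became 5 with that trend removed, beside 10.7% of all genes. Among interferon-stimulated genes 9 of 35 were higher and 1 lower, beside 14.4% and 15.6%, with a median of -0.024.

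Genes of squamous differentiation, the program of stratified epithelium, were set apart higher in 9 of 18 and lower in 0, beside 14.4% and 15.6% over all genes. The 9 became 6 with the length and GC trend removed, beside 10.7%. *S100A9*, 1 chain of the antimicrobial dimer calprotectin, was at 4.22, 17.4 and 19.1 CPM against 2.69 and 2.92, 3.63 and 5.303, and 1.36 and 1.02, with an interaction at 30 µg/cm2 of 3.38 ± 0.37 (adjusted p = 0.000455). Its partner *S100A8* was at 0.949 CPM at 30 µg/cm2 and under the floor in the others. *KRT17*, a keratin of stressed epithelium, was 392, 722 and 236 CPM against 182 and 214, 178 and 197, and 181 and 197. *CNFN*, cornifelin, and *KLK5*, a skin protease, differed by 2.28 and 1.84, from levels of 0.284 to 3.77 CPM. The 7-day libraries spanned 25.9 to 346 CPM for *S100A9* and 446 to 683 for *KRT17*.

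Among cytokine genes, several had a larger response in experiment 2. *CXCL1*, a chemokine for neutrophils, was at 1.95, 4.28 and 16.1 CPM against 7.68 and 8.92, 2.71 and 2.24, and 6.06 and 6.74. It was the lowest in vehicle and the highest at both doses, with interactions of 2.87 ± 0.33 (adjusted p = 0.00364) and 3.42 ± 0.30 (adjusted p = 0.0001). *CXCL8*, interleukin 8, gave 1.74 ± 0.26 (adjusted p = 0.00227) at 30 µg/cm2, *CSF3*, which drives neutrophil production, 5.12 ± 0.47 (adjusted p = 0.000125) and *CCL2*, a monocyte chemokine, 3.49 ± 0.67 (adjusted p = 0.00937). *IL11*, of the IL-6 family, was the exception at -1.74 ± 0.33 (adjusted p = 0.00896), with 4.75 CPM at 30 µg/cm2 against 16.4 and 18.9. Of 23 tested, 6 interactions at 30 µg/cm2 were called higher, beside 6.82% over all genes, and 1 lower, near the 3.88% over all genes. The 1 became 2 with upper-quartile scaling or the length and GC trend removed and 0 with all 15 libraries. The level was set apart lower in 6 and higher in 1, beside 15.6% and 14.4%.

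Metallothioneins, which bind zinc and cadmium, differed in response. *MT2A* was at 459.6, 846 and 7118 CPM against 1283 and 1544, 979.6 and 1106, and 4352 and 4656, with interactions of 1.32 ± 0.21 (adjusted p = 0.0101) and 2.28 ± 0.22 (adjusted p = 0.000168). It was the lowest in vehicle and the highest at 30 µg/cm2. *MT1E* gave 0.75 ± 0.19 (adjusted p = 0.0255) at 30 µg/cm2, *MT1F* -1.09 ± 0.20 (adjusted p = 0.00696) and the zinc exporter *SLC30A1* -0.96 ± 0.15 (adjusted p = 0.00348). These paralogs share sequence, so reads could be split between them. *MT1E* no longer passed at 30 µg/cm2 without the vehicle library of experiment 3, or the 30 µg/cm2 library of experiment 1 or 3 (highest adjusted p = 0.115). Of 9 tested, 3 were called higher and 3 lower at 30 µg/cm2, beside 6.82% and 3.88% over all genes, and the 3 higher became 1 without the vehicle library of experiment 3 or without the 30 µg/cm2 library of experiment 1 or 3.

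The aryl hydrocarbon receptor is bound by organic compounds of particles and switches on genes that oxidize them. *CYP1A1*, the cytochrome that oxidizes polycyclic hydrocarbons, went from 0.545 CPM in vehicle to 85.3 at 1 µg/cm2 in experiment 2 and from 1.24 and 1.37 to 146 and 147 in the others, and the interaction was 0.47 ± 0.33 (adjusted p = 0.513). With 30 µg/cm2 it was 40.5 CPM against 12.8 and 12.4, an interaction of 2.93 ± 0.30 (adjusted p = 0.000295). *CYP1B1*, whose locus overlaps other genes, and *AHRR*, the repressor of the pathway, which overlaps *PDCD6*, did not pass at 30 µg/cm2 (0.48 ± 0.16, adjusted p = 0.0808, and 0.32 ± 0.30, adjusted p = 0.541). Of 12 tested, 3 interactions at 30 µg/cm2 were called, each of them higher, beside 6.82% over all genes, and 1 without the 30 µg/cm2 library of experiment 1.

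Among targets of NRF2, which answers to oxidants, *HMOX1*, heme oxygenase, was at 39.3, 47.5 and 158 CPM against 22.7 and 25.1, 36.9 and 37.3, and 327 and 341, with an interaction at 30 µg/cm2 of -1.799 ± 0.15 (adjusted p = 8.27e-05). *TXNRD1*, thioredoxin reductase, gave -1.099 ± 0.16 (adjusted p = 0.00691) at 1 µg/cm2, where experiment 2 held 263 CPM against 693 and 742. *NQO1*, a quinone reductase, and *GCLM*, of glutathione synthesis, did not pass (0.62 ± 0.20, adjusted p = 0.0633, and 0.12 ± 0.15, adjusted p = 0.659 at 30 µg/cm2). Of 30 tested, 2 interactions at 30 µg/cm2 were called higher and 6 lower, beside 6.82% and 3.88% over all genes, so the share higher is near that of all genes. The 2 became 1 without the 30 µg/cm2 library of experiment 1 or 3, 5 without the vehicle library of experiment 1, with the replicate block or with no filter on low counts, and 4 without the 1 µg/cm2 library of experiment 1 or 3, with DESeq2, with all 15 libraries or with the length and GC trend removed. In glycolysis 7 of 20 were called, each of them higher, beside 6.82% over all genes, with 0.92 ± 0.14 (adjusted p = 0.00329) for *PFKP*, a phosphofructokinase, and the 7 became 2 and 3 without the 30 µg/cm2 library of experiment 1 or 3, 12 without the vehicle library of experiment 1, and 11 with no filter on low counts or with all 15 libraries.

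At 1 µg/cm2 the interactions farthest above 0 among genes at 1 CPM or more were those of *VGF*, a neuroendocrine peptide precursor, *CXCL1*, *ENSG00000266088*, *PRR7-AS1*, which lies opposite *GRK6*, and *CDH4*, a cadherin, and those farthest below 0 were *PURPL*, a noncoding RNA, *WDFY4*, *SMIM10L2A*, *ELF3*, an epithelial ETS factor, and *ZNF699*, which has a gene on the other strand. In experiment 2, *ELF3*, which has an antisense gene at its locus, stood at 14.2 CPM in vehicle, 16.7 at 1 and 6.32 at 30 µg/cm2, against 4.13 and 4.26, 19.5 and 23.1, and 1.48 and 1.34 in experiments 1 and 3. In experiments 1 and 3 its log2 response was 2.23 and 2.43 and in experiment 2 0.23, with an interaction of -2.11 ± 0.23 (adjusted p = 0.00364). *VGF* and *PURPL* touch the floor in experiment 2, so their fitted values depend on the prior count. *AFF3*, a nuclear transcription regulator, went from 27.6 CPM in vehicle to 0.917 at 30 µg/cm2 in experiment 2 and from 5.46 and 4.83 to 2.62 and 2.03 in the others, and *PALMD*, palmdelphin, from 3.81 to 0.3601 and from 0.462 and 0.5700 to 0.757 and 1.02.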

How the data were processed

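RNA was measured by poly-A sequencing with single-end reads. The authors deposited raw counts per gene, without normalization, made with STAR and featureCounts. Methods and file coordinates give GRCh38, while the submitters' processing notes list hg19. The strand of counting and the annotation are not given in the sources used here, so genes that overlap another are marked. Groups and experiment numbers came from sample titles.

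Counts of the 9 libraries of the 24-h protocol, 21460981 to 34724765 reads each, were fitted with edgeR 4.0.16 under R 4.3.3 (TMM, filterByExpr by treatment, quasi-likelihood test in legacy mode). Interactions came from a model of treatment, experiment 2 and their product, and responses from treatment alone. Level differences are the coefficient of experiment 2 in a fit with treatment, at a fixed dispersion. Adjusted p-values are edgeR's with the Benjamini-Hochberg method. Calls needed one under 0.05 and an absolute log2 value of at least 0.6. Log2 CPM used a prior count of 0.5. Fits were tested on simulated data that gave experiment 2 the same spread as the others, so that assumption was not tested. Alternatives were other scalings and filters, all 15 libraries, edgeR's current mode, DESeq2 1.42.0, a replicate block, each library left out in turn and, chosen after seeing the data, a loess trend on exon length and GC (span 0.3).

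The series record gives the number as an experimental batch. The number was taken to pair libraries in responses within an experiment and in the replicate block, and the main fits held no block. Deviations from treatment means correlated between libraries of the same number (r from 0.202 to 0.718, mean 0.531, 9 pairs). Between libraries of different number and treatment, r ran from -0.691 to 0.461 (mean -0.230, 18 pairs), so the ranges overlap. An experiment that stands apart in every treatment, as experiment 2 was chosen to do, gives such r by itself. These r therefore cannot show that libraries of the other experiments are paired. Experiment 2, the gene lists and the motifs were chosen with earlier results of these data known. Genes are named from the lists, from the largest differences among genes set apart at 5 CPM or more, from the 5 largest called interactions each way at 1 CPM or more, and at the threshold. A few genes are named only as markers at 0. Promoters came from RefSeq GRCh38.p14.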

Additional observations from a re-analysis of the deposited data

Results flagged for a closer look

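The response of experiment 2 differed from that of experiments 1 and 3 by edgeR's interaction test in 1003 genes at 1 µg/cm2 and in 1795 genes at 30 µg/cm2. At 1 µg/cm2 the log2 interaction was 4.19 for *VGF*, 2.87 for *CXCL1*, 2.83 for *ENSG00000266088*, 2.501 for *PRR7-AS1* and 2.47 for *CDH4*, where the response was higher in experiment 2, and -2.04 for *ZNF699*, -2.11 for *ELF3*, -2.19 for *SMIM10L2A*, -2.28 for *WDFY4* and -3.495 for *PURPL*, where it was lower. Of these 10, only *CXCL1* and *ELF3* passed with each of the 7 libraries left out that allow the test. *PURPL* and *VGF* have libraries at or under the floor, so the fitted size depends on the prior count.

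For 30 µg/cm2 it was 6.02 for *FGB*, 5.12 for *CSF3*, 4.28 for *ETV4*, 4.04 for *ENSG00000266088* and 3.49 for *CCL2*, and below 0 it was -3.33 for *RAB39B*, -3.78 for *AFF3*, -3.81 for *INHBE*, -4.15 for *PALMD* and -4.18 for *CHAC1*. *FGB* was at 0 in both 30 µg/cm2 libraries of experiments 1 and 3, and *RAB39B* at 0.0578 and 0.134 CPM in their vehicle libraries, so both fitted values depend on the prior count. *FGB* no longer passed at 30 µg/cm2 without the 30 µg/cm2 library of experiment 1 (highest adjusted p = 0.0794). *RAB39B* no longer passed at 30 µg/cm2 without the vehicle library of experiment 1, or the 30 µg/cm2 library of experiment 1 or 3 (highest adjusted p = 0.0775). The same vehicle library of experiment 2 stands behind all of these values, and experiment 2 was chosen because it stood apart.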

How the results depend on the processing

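No setting turned the direction of a set-apart difference or a called interaction of a named gene. Values of named genes that were not set apart or did not pass were not checked in this way. With an absolute log2 difference of 1 required, 2115 genes were set apart in place of 5039. The interaction at 1 µg/cm2 was called in 1003 genes, in 1749 with no filter on low counts, in 2181 with the replicate block, in 500 with the length and GC trend removed (chosen after seeing the data), and in 178 to 2161 with a library left out. That at 30 µg/cm2 was called in 1795 genes, in 2734 with the replicate block and in 627 to 2571 with a library left out. Interactions could not be computed without the vehicle or the matching treated library of experiment 2. The response over 3 experiments was called at 1 µg/cm2 in 3 genes, in 5 with no filter, 25 with the replicate block, 19 with DESeq2, 11 with all 15 libraries, 324 in experiments 1 and 3 alone, 693 there with the block, and 0 to 4 with a library left out, the 0 without the vehicle library of experiment 3, where 126 genes had an unadjusted p under 0.05 in edgeR. The response to 30 µg/cm2 was called in 545, in 2390 with the replicate block, 1260 with DESeq2, 1420 with all 15 libraries, 3246 in experiments 1 and 3 alone, 3736 there with the block, and 88 to 1184 with a library left out. The cause of these shifts was not tested. Of 1823 tests of named interactions under other settings, 163 no longer passed, 40 of them without the 30 µg/cm2 library of experiment 3 and 36 without that of experiment 1. Experiment 2 has 1 library per treatment, so its own spread is unknown, and genes near 0.0864 to 0.140 CPM are at the floor.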

Other observations

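Feedback genes of the WNT pathway were set apart lower in 7 of 18 and higher in 0, beside 15.6% and 14.4% over all genes, with a median of -0.36. With the length and GC trend removed, 5 were lower and 1 higher, beside 11.7% and 10.7%, with a median of -0.52. *DKK1*, a secreted WNT antagonist, held 32.3, 18.3 and 20.00 CPM in vehicle, 1 and 30 µg/cm2 of experiment 2 against 86.6 and 91.8, 43.1 and 46.7, and 23.4 and 25.2 in experiments 1 and 3. *LAMA3* and *LAMB3*, which encode laminin chains of epithelial basement membranes, differed by a log2 of -1.49 and -1.32. Keratins and basal epithelial genes were set apart lower in 6 of 24 and higher in 4, beside 15.6% and 14.4%. Genes of epithelial junctions were lower in 8 of 29 and higher in 2. With the length and GC trend removed, 6 in each list were lower, and 2 and 1 higher, beside 11.7% and 10.7% over all genes.

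Genes induced by retinoic acid were set apart higher in 6 of 14 and lower in 2, beside 14.4% and 15.6%. With the length and GC trend removed, 5 were higher and 1 lower, beside 10.7% and 11.7%. *DHRS3*, which reduces retinal, held 10.1, 22.4 and 26.4 CPM against 1.59 and 2.82, 11.8 and 13.8, and 9.87 and 11.4. Mitotic genes were set apart higher in 8 of 32 and lower in 0, beside 14.4% and 15.6%, and with the length and GC trend removed in 4, a share close to the 10.7% over all genes under that setting, with *PTTG1*, securin, at 1.05 and *CCNB1*, cyclin B1, at 0.64, while *CCND1* was at -2.41. All of these are levels that share the choice of experiment 2, with no test.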
